A study of Arabidopsis thaliana with 12 samples.

Results

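The 26 genes described here are carried by the plastid genome of Arabidopsis thaliana and encode the plastid's own gene expression machinery and a few other proteins, rather than subunits of the photosynthetic complexes. They were chosen from the annotation alone: each has a probe set that names 1 plastid gene and no other, and the symbol does not begin with psa, psb, pet, atp, ndh or rbcL. The 26 are part of 69 plastid genes, and of 13356 genes in all, with a probe set that names them alone; 22746 probe sets were tested. The other 43 plastid genes encode photosynthesis proteins. By role the 26 fall into 4 subunits of the RNA polymerase (rpoA, rpoB, rpoC1, rpoC2), 8 proteins of the small ribosomal subunit (rps2, rps3, rps4, rps14, rps15, rps16, rps18, rps19), 7 proteins of the large subunit (rpl14, rpl16, rpl20, rpl22, rpl32, rpl33, rpl36), the trio accD, clpP and matK, and 4 genes for assembly factors and membrane proteins (ycf3, ycf4, cemA, ccsA). The rule left out 7 probe sets that each name 2 plastid copies, for 6 genes (rps7, rps12, rpl2, rpl23, ycf1 and ycf2).

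Plastids keep a small genome that is transcribed by 2 kinds of polymerase. One is bacterial in type, with its core subunits encoded by the rpo genes of the plastid and its sigma factors by the nucleus, and it transcribes most photosynthesis genes. The other is a phage-type polymerase encoded in the nucleus, which transcribes the rpoB operon and accD. Many plastid genes lie in operons whose long transcripts are cut and trimmed, so the level of a gene reflects processing and stability of its RNA as well as transcription.

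Seedlings of 4 genotypes were profiled on the ATH1 array, 3 arrays per genotype and 12 in all. AB, SIZ1 and SAB are T-DNA insertion knock-outs, and COL is the Columbia wild type. SIZ1 is the name of the main E3 ligase for the protein modifier SUMO, and the labels do not spell out AB or SAB. The series set out to learn what ubiquitin-like proteases do for transcription. All seedlings were untreated and grew at 23 °C and 100 µE of light, on the medium of Murashige and Skoog with vitamins after Gamborg B5. For AB 1 and AB 2 the labels give an age of 10 days, and for the others a harvest date. The labels give no allele and no number of plants per sample, and they do not state that the 3 samples of a line were grown apart, so p-values measure only a spread between samples that may be technical.

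Values are log2 expression values as the authors deposited them, from 2.02 to 13.21, and over all probe sets the median of the means was 3.51. A difference of 1 is a factor of 2. A gene is called higher or lower where limma's p, adjusted by Benjamini-Hochberg over all 22746 probe sets, was under 0.05. The number of arrays limits the precision. Of the 2 probe sets that name SIZ1, one averaged 2.40 in SIZ1 and 2.52 in SAB, against 5.26 in AB and 5.50 in COL, while the other averaged 4.32 in SIZ1 and 3.91 in SAB, against 3.14 in AB and 3.01 in COL. Among markers of green tissue, 3 of 10 had a probe set of their own, and RCA, which activates Rubisco, averaged 12.18 in AB, 12.17 in SIZ1, 12.25 in SAB and 12.19 in COL. The other 2, LHCB4.1 and LHCB4.2, did not stay level: against COL, 2 of the 3 markers were called lower in SIZ1 and 1 in SAB. Their values are given later. The root gene PYK10 averaged 11.80 in AB, 11.69 in SIZ1, 11.90 in SAB and 11.65 in COL, and EXPA7, a gene of root hairs, lay near the floor at 2.51 to 2.63. In RNA from whole seedlings, fewer plastids or plastid-bearing cells and less RNA per plastid cannot be told apart. The plastid probe sets also depend on how the labelling treats RNA without a poly-A tail, and the labels say only that the RNA was amplified and labelled indirectly with biotin.

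The plastid genes outside photosynthesis split into a few that were lower in SIZ1 and SAB and a majority for which no change was called. Against COL, AB had 0 of 26 called, against 0.044% of all probe sets called lower and 0.0176% called higher. SIZ1 had 2 of 26 called lower (7.69%, against 1.29% of all probe sets) and 0 called higher (1.93% of all). SAB had 5 of 26 called lower (19.2%, against 1.56% of all) and 0 called higher (1.66% of all). These comparisons share the 3 COL arrays. The median difference over the 26 genes was 0.11 in AB, -0.15 in SIZ1 and -0.17 in SAB, beside medians over all probe sets of -0.00, -0.02 and 0.00. Below COL on average were 5 of 26 genes in AB, 24 of 26 in SIZ1 and 17 of 26 in SAB. Of all 22746 probe sets, 11658 were below COL in AB, 14471 in SIZ1 and 10453 in SAB. No test was made of these shares or medians, and 24 of the 26 genes lie above the median level of all probe sets, many of which are too dim to be called.

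**Figure D1:**
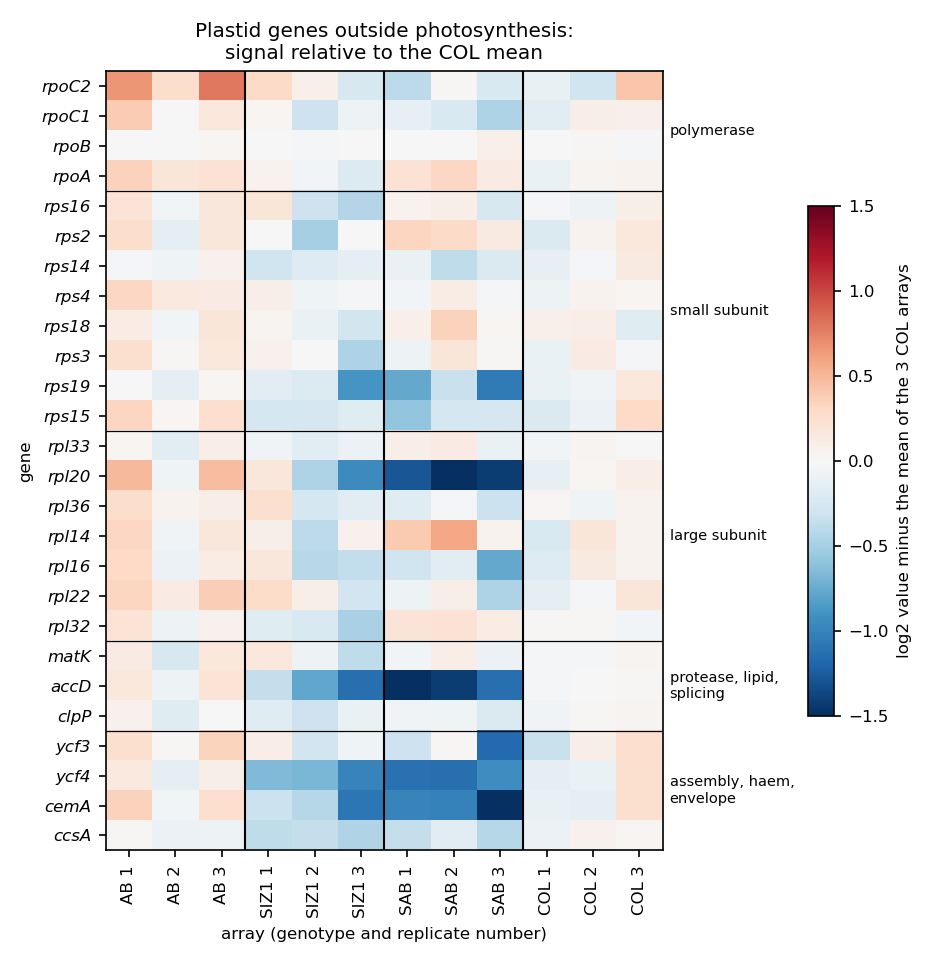
Each row is 1 of the 26 plastid genes, grouped by role, and each column 1 of the 12 arrays; the colour is the log2 value minus the mean of the 3 COL arrays, blue for lower. Deep blue in the SAB columns stands in the rows of accD, ycf4, cemA and rpl20, and most other rows are pale in all columns. In the SIZ1 columns these rows are paler on average, and rpl20 lies above the COL mean in SIZ1 1.

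A comparison of SIZ1 and SAB together with COL and AB together sets 6 arrays against 6 with the same fit. The pairing of the lines follows the low signal of that SIZ1 probe set in SIZ1 and SAB, since the labels do not say that SAB lacks SIZ1. SAB also resembles AB in the probe set of the SUMO protease gene SPF1, which averaged 3.23 in SAB and 3.17 in AB, against 4.29 in SIZ1 and 4.76 in COL. Called lower were 6 of 26 genes (23.1%, against 5.04% of all probe sets), namely ycf4, accD, ccsA, cemA, rpl20 and rps15, and 0 were called higher (5.67% of all). A fit that held the replicate number as a block called rps14 as well (7 of 26, against 6.67% of all). In 5 of 26 genes (19.2%, against 2.71% of all probe sets) all 6 SIZ1 and SAB arrays lay below all 6 COL and AB arrays. The median over the 26 genes was -0.20, beside -0.01 over all probe sets. Negative differences were seen in 25 of 26 genes, beside 13251 of all 22746 probe sets.

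In SIZ1 and SAB against COL and AB the largest fall was in accD, which encodes a subunit of the plastid acetyl-CoA carboxylase and so serves fatty acid synthesis rather than photosynthesis. Its log2 values were 4.40, 4.58 and 4.88 in the SAB arrays, 5.65, 5.23 and 4.88 in the SIZ1 arrays and 6.17, 5.93 and 6.22 in the AB arrays, against 5.99, 6.01 and 6.03 in the COL arrays. All 6 SIZ1 and SAB arrays lay below all 6 AB and COL arrays, and SIZ1 and SAB overlapped at their nearest ends. In SAB accD was 2.62-fold lower than in COL (log2 difference -1.39, SE 0.183, limma adjusted p = 0.00559). In SIZ1 the difference from COL was -0.75 (SE 0.183) and missed the threshold with a limma adjusted p of 0.0626, although it passed where only brighter probe sets were tested (limma adjusted p = 0.0204). Against COL and AB together, SIZ1 and SAB were 2.17-fold lower (-1.12, SE 0.129, limma adjusted p = 0.000929).

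The other genes of this mixed group did not pass in any comparison of the main fit. The protease subunit gene clpP had values of 10.28, 10.27 and 10.11 in SAB and 10.15, 10.02 and 10.23 in SIZ1, against 10.28, 10.35 and 10.37 in COL. Both lines lay below COL with no overlap, by differences of -0.11 in SAB and -0.20 in SIZ1 (limma adjusted p 0.574 and 0.222). For matK, the maturase that helps to splice plastid introns, the difference was -0.01 in SAB, with a 95% interval of -0.32 to 0.30, and -0.10 in SIZ1, with an interval of -0.41 to 0.21.

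Among the 4 assembly and membrane genes, 3 were lower. ycf4, an assembly factor of photosystem I, had values of 4.24, 4.23 and 4.42 in SAB, 4.69, 4.67 and 4.35 in SIZ1 and 5.49, 5.22 and 5.44 in AB, against 5.21, 5.25 and 5.59 in COL. Every SIZ1 and SAB array was below every AB and COL array. ycf4 was called lower in both lines, 2.08-fold in SAB (-1.06, SE 0.128, limma adjusted p = 0.00410) and 1.72-fold in SIZ1 (-0.78, SE 0.128, limma adjusted p = 0.0141). The SIZ1 call was lost in a fit of the 2 genotypes alone (limma adjusted p = 0.128) and with centring on the poly-A controls (-0.37, limma adjusted p = 0.171).

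cemA, which encodes a protein of the inner chloroplast envelope, had values of 7.21, 7.20 and 6.62 in SAB, 7.89, 7.78 and 7.13 in SIZ1 and 8.56, 8.18 and 8.47 in AB, against 8.11, 8.08 and 8.46 in COL. The SIZ1 and SAB arrays again lay wholly below those of AB and COL. The fall to 7.01 ± 0.34 in SAB, against 8.22 ± 0.21 in COL (SD, n = 3 each), was 2.30-fold, with a limma adjusted p of 0.0257. That call was lost without any 1 of the 6 SAB and COL arrays (limma adjusted p up to 0.0800). In SIZ1 the difference of -0.62 was not called (limma adjusted p = 0.220).

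ccsA, needed to attach haem to c-type cytochromes, changed by less but with little spread. It had 9.49, 9.68 and 9.41 in SAB, 9.46, 9.48 and 9.39 in SIZ1 and 9.87, 9.76 and 9.76 in AB, against 9.76, 9.91 and 9.87 in COL. SIZ1 and SAB did not overlap AB and COL. SIZ1 was 1.32-fold lower than COL (-0.40, SE 0.0686, limma adjusted p = 0.0167), and SAB was 1.25-fold lower (-0.32, SE 0.0686, limma adjusted p = 0.0421). Both calls are near the threshold: the SIZ1 call was lost without SIZ1 1, SIZ1 2 or COL 2 (limma adjusted p up to 0.0546) and with only the 2 genotypes (limma adjusted p = 0.0612). Centring on the poly-A controls, described later, turned it to 0.010 (limma adjusted p = 0.968). The SAB call was lost in 13 of 19 alternatives, among them leaving out AB 1, AB 2, AB 3, SIZ1 1, SIZ1 2, SAB 1, SAB 3 or any COL array (limma adjusted p up to 0.114) and centring on the poly-A controls (-0.12, limma adjusted p = 0.764).

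The other assembly factor of photosystem I, ycf3, was not called. It had 7.55, 7.87 and 6.70 in SAB, 7.96, 7.57 and 7.80 in SIZ1 and 8.10, 7.88 and 8.19 in AB, against 7.52, 7.95 and 8.11 in COL. SAB 3 stood well below the other arrays and the rest overlapped. The difference between SAB and COL was -0.49, with a 95% interval of -1.11 to 0.13.

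**Figure D2:**
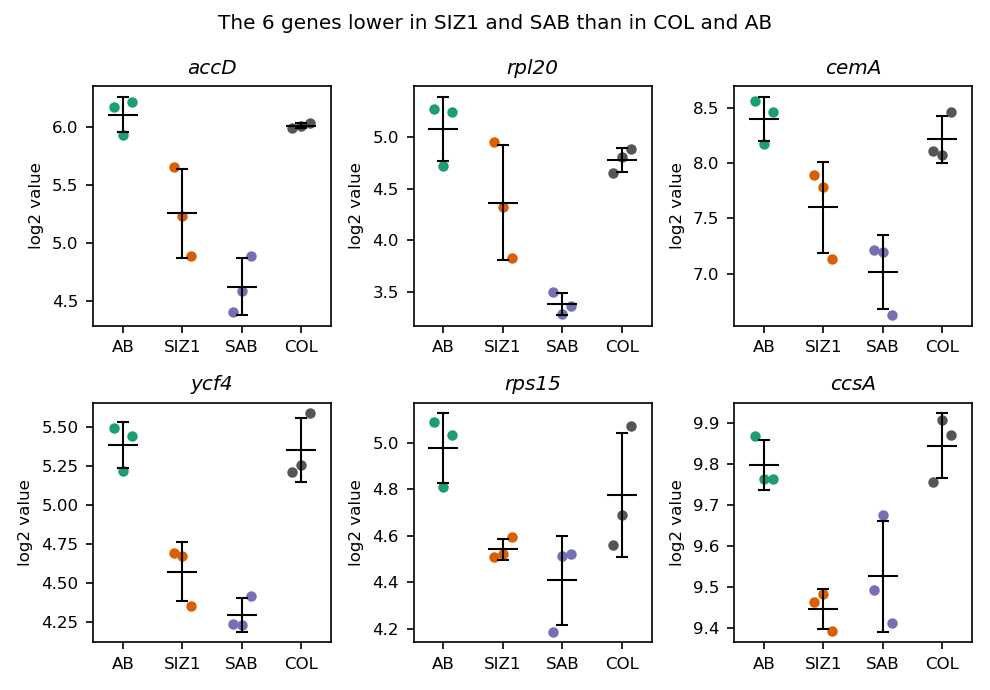
Log2 values of the 6 genes called lower in SIZ1 and SAB than in COL and AB, with a point per array and bars for the mean and SD of 3 arrays. In accD, cemA, ycf4 and ccsA the SIZ1 and SAB points all lie below those of AB and COL; in rpl20 SIZ1 spans the gap, and in rps15 the ranges of SIZ1 and COL overlap slightly.

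The genes of the large ribosomal subunit held 1 of the strongest changes beside 6 genes for which none was called. rpl20, a protein of the large subunit, had 3.50, 3.29 and 3.37 in SAB, 4.95, 4.32 and 3.83 in SIZ1 and 5.27, 4.72 and 5.25 in AB, against 4.66, 4.81 and 4.88 in COL. SAB lay below all other arrays, while the SIZ1 arrays spread from within the COL and AB range to close to SAB. rpl20 was 2.64-fold lower in SAB than in COL (-1.40, SE 0.251, limma adjusted p = 0.0201), a call lost without any 1 of the 6 SAB and COL arrays (limma adjusted p up to 0.0707). The difference between SIZ1 and COL was -0.42, with a 95% interval of -0.98 to 0.15. Over SIZ1 and SAB together it was 2.08-fold lower than in COL and AB (limma adjusted p = 0.00622).

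Among the other 6 large-subunit genes the differences between SAB and COL ran from -0.41 for rpl16 to 0.34 for rpl14, which was the largest rise of all 26 genes in SAB. rpl14 had 10.07, 10.26 and 9.73 in SAB and 9.77, 9.29 and 9.75 in SIZ1, against 9.45, 9.86 and 9.74 in COL. The lines overlapped, and the rise was not called (limma adjusted p = 0.419). rpl32 moved in opposite directions in the 2 lines. It had 10.37, 10.40 and 10.30 in SAB and 9.99, 9.95 and 9.70 in SIZ1, against 10.20, 10.19 and 10.14 in COL. The SAB arrays were above COL and the SIZ1 arrays below, with no overlap, but neither difference passed (0.18 with limma adjusted p = 0.364 in SAB, and -0.30 with limma adjusted p = 0.105 in SIZ1).

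Of the 8 small-subunit genes, rps15 was called lower in SIZ1 and SAB than in COL and AB. It had 4.19, 4.51 and 4.52 in SAB, 4.51, 4.52 and 4.59 in SIZ1 and 5.09, 4.81 and 5.03 in AB, against 4.56, 4.69 and 5.07 in COL. SAB lay below COL, and the upper SIZ1 array overlapped the lower COL array. The difference over both lines was -0.40 (SE 0.0980, limma adjusted p = 0.0307), and the call was lost without AB 1, AB 3, SIZ1 1, SIZ1 2 or SAB 1 (limma adjusted p up to 0.0725).

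In the main fit rps19 missed the threshold narrowly in the same comparison. It was called lower there with quantile normalization (limma adjusted p = 0.0483), median centring (0.0332), brighter probe sets only (0.0153) and an intensity trend (0.0334). It was not called with the replicate block (limma adjusted p = 0.0558) or with centring on the poly-A controls. It had 9.61, 10.05 and 9.32 in SAB, 10.23, 10.18 and 9.50 in SIZ1 and 10.39, 10.25 and 10.41 in AB, against 10.28, 10.33 and 10.54 in COL. All 6 SIZ1 and SAB arrays were below all AB and COL arrays, with a difference of -0.55 (SE 0.154, limma adjusted p = 0.0517). rps14 lay near the floor of the measurement, at 2.74 ± 0.15 in SAB and 2.76 ± 0.08 in SIZ1, against 2.97 ± 0.07 in AB and 2.97 ± 0.13 in COL (SD, n = 3 each). Its difference over both lines was -0.22 (limma adjusted p = 0.0527, and 0.0431 with the replicate block). The other 5 genes, rps2, rps3, rps4, rps16 and rps18, differed by -0.16 to -0.01 over both lines, and none was called.

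The polymerase genes gave no call in any comparison of the main fit. rpoA, the alpha subunit, had 10.96, 11.06 and 10.87 in SAB, 10.80, 10.71 and 10.54 in SIZ1 and 11.09, 10.92 and 10.96 in AB, against 10.65, 10.79 and 10.80 in COL. Its AB and SAB arrays lay above all COL arrays, by 0.24 in AB (limma adjusted p = 0.398) and 0.22 in SAB (limma adjusted p = 0.200). rpoC2, which encodes the beta'' subunit, showed the largest rise of the 26 genes in AB, with 6.29, 5.89 and 6.42 in AB, against 5.51, 5.33 and 6.04 in COL. AB 2 fell within the COL range, and the difference of 0.57 was not called (limma adjusted p = 0.515). In SAB it had 5.24, 5.64 and 5.40, and in SIZ1 5.92, 5.70 and 5.39. rpoC1, for the beta' subunit, averaged 7.14 ± 0.18 in SAB and 7.30 ± 0.17 in SIZ1, against 7.42 ± 0.14 in COL (SD, n = 3 each), with differences of -0.27 and -0.12. rpoB, for the beta subunit, lay between 2.49 and 2.58 on every array, at the floor. A fall in it could not have been seen, and a small rise could be understated.

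**Figure D3:**
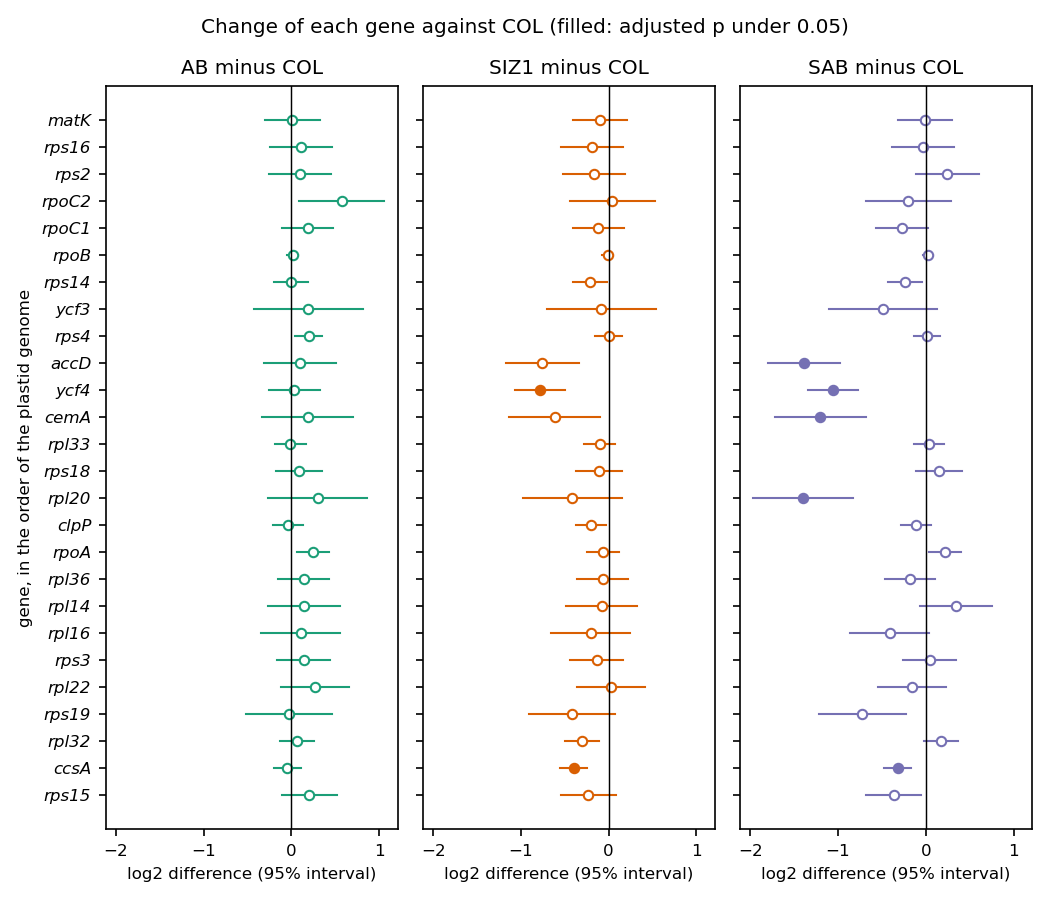
Log2 difference of each gene in AB, SIZ1 and SAB from COL, with its 95% interval from limma; filled points were called. AB has none filled, SIZ1 has ycf4 and ccsA, and SAB has accD, ycf4, cemA, rpl20 and ccsA.

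SAB and SIZ1 were also compared directly. Called were 0 of 26 genes, beside 0% of all probe sets, with limma. The lowest adjusted p was 0.529, for rpl32, which was 0.48 higher in SAB (95% interval 0.28 to 0.67). The largest fall was in rpl20, by -0.98 (interval -1.55 to -0.42), and the only gene whose 3 SAB arrays lay wholly below the 3 SIZ1 arrays was rpl20, beside 3.69% of all probe sets that did. With the arrays wholly above were rps2, rpoB, rpoA and rpl32 (4 of 26, beside 6.76% of all). The differences seen in accD (-0.63) and cemA (-0.59) point the same way as those from COL but did not pass.

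Against AB, SAB had 4 of 26 genes called lower (15.4%, beside 2.08% of all probe sets) and 0 higher (2.35% of all). These were rpl20, 3.25-fold lower (limma adjusted p = 0.00726), accD, 2.79-fold lower (limma adjusted p = 0.00333), cemA, 2.62-fold lower (limma adjusted p = 0.0117), and ycf4, 2.13-fold lower (limma adjusted p = 0.00294). In the fit with the replicate block rps15 joined them (-0.57, limma adjusted p = 0.0353 with the block and 0.0526 without), which made 5 of 26, beside 3.42% of all. In 15 of 26 genes (57.7%) the 3 SAB arrays lay wholly below the 3 AB arrays, beside 10.3% of all probe sets.

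Against COL, the arrays lay wholly below in 9 of 26 genes in SIZ1 (34.6%, beside 26% of all probe sets) and in 8 of 26 in SAB (30.8%, beside 9.83% of all). They lay wholly above COL in rpoA and rpl32 in SAB (2 of 26, beside 8.33% of all) and in rpoA and rps4 in AB (2 of 26, beside 4.69% of all). In AB no gene was called: the largest rise over COL was 0.57 for rpoC2 and the largest fall -0.05 for ccsA. The 95% intervals of the 26 genes together spanned -0.52 to 1.06, so larger changes are not excluded. A test of whether the change in SAB equals that of SIZ1 plus that of AB called 0 of 26 genes, beside 0% of all probe sets. The largest departure was -1.28 in rpl20 (limma adjusted p = 0.631).

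The genes were also placed in the order of the plastid genome. accD, ycf4 and cemA are near neighbours, with the photosynthesis genes rbcL before accD, psaI between accD and ycf4, and petA after cemA. In SIZ1 and SAB against COL and AB, rbcL, the large subunit of Rubisco, was lower by a log2 difference of -0.47 (limma adjusted p = 0.00583), psaI, of photosystem I, by -0.58 (limma adjusted p = 0.0108), and petA, cytochrome f, by -0.60 (limma adjusted p = 0.00849). The stretch from rbcL through accD, psaI, ycf4, cemA and petA to petG held 12 consecutive measured genes, all called lower. It was picked out after the values were seen, so no test of it was made.

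rpl20 stood alone among its neighbours. The transcripts of clpP and rpl20 come from 1 operon in plants, yet the difference was -1.06 in rpl20 and -0.13 in clpP (limma adjusted p = 0.159). On its other side rps18 (-0.02) and rpl33 (-0.03) were not called. The difference between neighbouring genes was not tested. ccsA likewise lies between rpl32 (-0.09) and ndhD, a subunit of the NADH dehydrogenase-like complex (0.08), neither of which was called.

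Other operons were read in the same way, and differences between their genes were not tested. rps2 (-0.01) precedes atpI (-0.59), atpH (-0.94) and atpF (-0.99), genes of the plastid ATP synthase that were all called lower, while atpA (-0.46) was not called. rps14 (-0.22, near the floor) is transcribed with psaB (-0.50, called) and psaA (0.02, not called), the core proteins of photosystem I. In the main fit rps14 was not called, but it was with the replicate block, quantile normalization, median centring and an intensity trend. The large ribosomal operon, measured through rps19, rpl22, rps3, rpl16, rpl14, rpl36 and rpoA, gave 0 of 7 genes called, with a median of -0.19. In the annotation rps3 and rpl22 overlap, so their signals are uncertain as those of separate genes. The rpoB operon, which the nuclear-encoded polymerase transcribes, gave 0 of 3 called (rpoC2 -0.37, rpoC1 -0.29, and rpoB 0.00 at the floor). The difference between these genes and accD, transcribed by the same polymerase, was not tested. Where only brighter probe sets were tested, rpoC2 and rpoC1 were called lower in SAB than in AB (limma adjusted p 0.0271 and 0.0436). In SIZ1 and SAB against COL and AB, rpoC1 was called lower with brighter probe sets only (limma adjusted p = 0.0437) and with median centring (limma adjusted p = 0.0476).

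**Figure D4:**
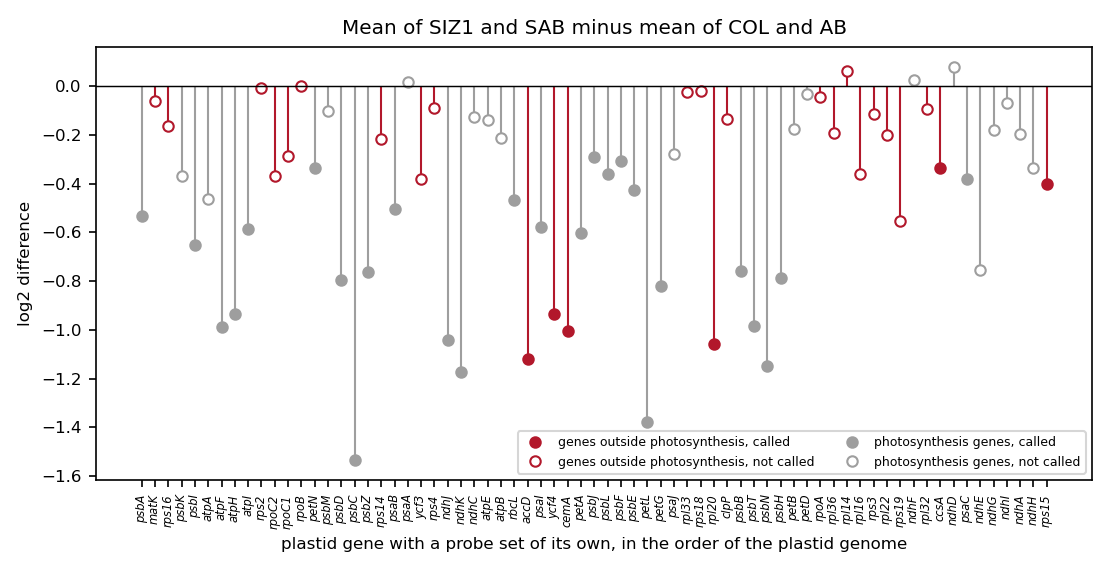
Log2 difference of SIZ1 and SAB from COL and AB for the 69 plastid genes with a probe set of their own, in genome order; red marks the 26 genes outside photosynthesis, grey the 43 photosynthesis genes, and filled points were called. Filled points run unbroken from rbcL to petG, and the stretch from petB to rpl32 has none.

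The plastid genes for photosynthesis serve as the nearest comparison. In SIZ1 and SAB against COL and AB, 26 of 43 photosynthesis genes were called lower (60.5%) with a median of -0.46 beside 6 of 26 (23.1%) with a median of -0.20 outside photosynthesis. Against COL alone, 0 photosynthesis genes were called lower in AB (median 0.04), 5 in SIZ1 (median -0.41) and 16 in SAB (median -0.46). The shares are descriptions, and the difference between them was not tested. Mitochondrial genes, from the other organelle genome measured, had 1 of 18 probe sets called lower in SIZ1 and SAB against COL and AB. Their median difference was 0.02, and 5.04% of all probe sets were called lower there. The median level of the 18 averaged 2.54 in AB, 2.61 in SIZ1, 2.57 in SAB and 2.55 in COL, near the floor. A fall in many of them could therefore not have been seen.

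Nuclear genes for the same machinery were followed where a probe set named them alone. Of 32 nuclear genes for plastid ribosomal proteins 8 had one, and 0 were called against COL, where the medians were -0.09 in AB, -0.04 in SIZ1 and -0.02 in SAB. One of the 8, AT2G43030, passed in SIZ1 in the fit with the block (-0.18, limma adjusted p = 0.0407, and 0.0714 without the block). Of 14 nuclear Clp subunits, partners of ClpP, 5 had a probe set and 0 were called against COL. Of 9 sigma factors and phage-type polymerases 1 had one (AT5G15700), at 2.43 in SAB, 2.40 in SIZ1, 2.39 in AB and 2.43 in COL, near the floor. None of the 14 polymerase-associated proteins or of the 4 nuclear carboxylase subunits, which would act with AccD, had a probe set of its own.

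Other values from the same arrays are given next, and their part in these results was not tested. LHCB4.2, a nuclear light-harvesting gene of green tissue, averaged 10.41 in SAB and 10.42 in SIZ1, against 10.92 in AB and 11.26 in COL, and was called lower in both lines against COL. LHCB4.1 was called lower in SIZ1 (-0.19, limma adjusted p = 0.0280) and was -0.14 in SAB (limma adjusted p = 0.0847, and 0.0445 with the replicate block), whereas RCA differed by 0.06 in SAB and -0.02 in SIZ1. The 24 poly-A control probe sets, for bacterial RNAs that are used as spike-ins for labelling, averaged 4.67 ± 0.30 in AB, 4.04 ± 0.18 in SIZ1, 4.25 ± 0.18 in SAB and 4.45 ± 0.23 in COL (SD, n = 3 each). All 24 of 24 were lower in SIZ1 than in COL, and 23 of 24 in SAB.

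If each array is centred on these controls, 0 of 26 genes are called in SIZ1 against COL. The median of all probe sets then moves to 0.39 in SIZ1 and 0.21 in SAB against COL and to 0.41 in SIZ1 and SAB against COL and AB. accD (-0.70), rpl20 (-0.64), cemA (-0.59) and ycf4 (-0.52) remained called lower in SIZ1 and SAB against COL and AB on that scale, and ccsA (0.08) and rps15 (0.02) changed sign. Another 7 genes were then called higher, namely matK, rps2, rpoB, rpl33, rps18, rpoA and rpl14, with differences of 0.36 to 0.48, close to the shift of all probe sets. The share of all probe sets called on that scale is not given.

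The amount of RNA per array, 739 ng in AB, 727 ng in SIZ1, 871 ng in SAB and 751 ng in COL on average, was highest in SAB. Per array, the median of the 26 genes relative to the COL mean was -0.09, 0.00 and -0.23 in SAB, 0.04, -0.26 and -0.26 in SIZ1 and 0.24, -0.05 and 0.16 in AB, against -0.10, 0.02 and 0.06 in COL. SIZ1 1, SAB 1 and SAB 2 stood within the range of the COL arrays by this median, although accD, ycf4, cemA and ccsA were below all COL arrays in each of them. No gene of the 26 differed between replicate numbers (limma F test, 0 of 26 called, beside 1.61% of all probe sets), and the lowest adjusted p was 0.615.

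**Figure D5:**
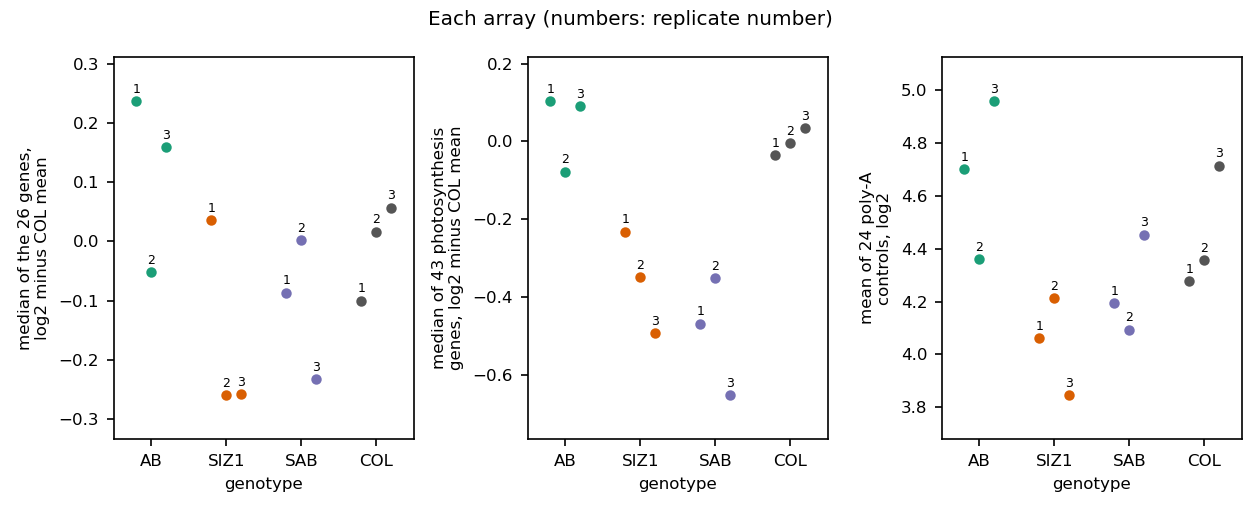
Per array, the median of the 26 genes and of the 43 photosynthesis genes as log2 values minus the COL mean, and the mean of the 24 poly-A controls on the log2 scale; numbers are replicate numbers. SIZ1 and SAB lie below AB and COL in the photosynthesis genes, while the 26 genes overlap between the genotypes.

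Across the 26 genes, the mean level and the change in SIZ1 and SAB against COL and AB had a Pearson correlation of 0.37 and a Spearman correlation of 0.33. These describe genes measured on the same 12 arrays. Of the 6 called genes 5 had a mean level under the median of the 26 genes, 8.75, and the sixth was ccsA at 9.65.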

How the data were processed

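RNA from seedlings of AB, SIZ1, SAB and COL was measured on 12 ATH1 arrays. The deposited log2 values are GCRMA output, per the submitters' processing notes. Neither its version nor whether the arrays were processed as 1 set is stated in the labels. GCRMA draws dim probe sets to a floor, so changes near it are understated. The log2 scale was read from the range. No further normalization was applied to the deposited values, and 64 control probe sets were left out. Names come from the annotation table of the platform and a RefSeq gene table (TAIR10.1): 13513 name 1 gene, 503 several and 8730 are unnamed here. Genome order is that of RefSeq, and no coordinates are printed because no source used here gives the build of the array's design.

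A linear model of genotype over the 12 arrays was fitted with limma 3.58.1 in R 4.3.3 (lmFit and eBayes, 8 residual and 1.31 prior degrees of freedom). Tests were two-sided, with Benjamini-Hochberg adjustment over 22746 probe sets for each comparison, and SE is limma's moderated standard error. The fit was tested on simulated data with known changes. Groups come from the sample titles. Whether the replicate numbers in the titles pair the arrays was checked first: all 18 pairs of arrays that share a number deviated together from their genotype means (r of 0.102 to 0.451, median 0.257), and pairs with different numbers had a median r of -0.125. Deviations within a genotype cancel out, so the negative median follows in part from the positive one. Over the 26 genes alone the median r was -0.014 for pairs sharing a number and 0.035 for pairs with different numbers. Because of the correlation over all probe sets, the replicate number was used as a block in a second fit.

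The members, gene lists and comparisons were chosen with earlier results of these data known. Genes given with every array are those called against COL or in the comparison of SIZ1 and SAB with COL and AB. The rpo genes, clpP, accD, matK and the largest changes against COL are always given. rps19, ycf3, rpl32 and the stretch from rbcL to petG were picked after their values were seen. Alternatives were the block, quantile normalization, centring on medians or on poly-A controls, brighter probe sets only, an intensity trend, only the 2 genotypes compared, and leaving out each array. A search of promoters for motifs was not run.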

Additional observations from a re-analysis of the deposited data

How the results depend on the processing

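The calls of accD (SAB against COL, SAB against AB, and SIZ1 and SAB against COL and AB) and of ycf4 in the same comparisons held under all alternatives tried, as did those of cemA and rpl20 in SAB against AB and in SIZ1 and SAB against COL and AB. Without 1 array at a time, the number of the 26 genes called ran from 1 to 2 in SIZ1 against COL (1 without SIZ1 2 or COL 2), 2 to 5 in SAB against COL (2 without SAB 1, SAB 3, COL 1, COL 2 or COL 3, and 3 without SAB 2), 4 to 5 in SAB against AB and 5 to 7 in SIZ1 and SAB against COL and AB. With only the 2 genotypes compared, 0 were called in SIZ1 against COL and 3 in SAB against COL, in a fit of fewer arrays. With only brighter probe sets, 8 were called in SAB against AB, adding rpoC2, rpoC1, rps19 and rps15. Called in SIZ1 and SAB against COL and AB were 8 with quantile normalization, brighter probe sets or an intensity trend, and 9 with median centring. Shares of all probe sets are given only for the main fit and the block, so counts under the other alternatives have no background beside them. Centring on the poly-A controls gave 0 called in SIZ1 against COL, 1 in SAB against SIZ1 (rpl20) and 11 in SIZ1 and SAB against COL and AB (4 lower, 7 higher). It turned the median of the 26 genes to 0.26 in SIZ1 and 0.037 in SAB against COL, 0.18 in SAB against AB and 0.22 in SIZ1 and SAB against COL and AB. ccsA turned to 0.010 in SIZ1 against COL and 0.083 in SIZ1 and SAB against COL and AB, and rps15 to 0.016 in SIZ1 and SAB against COL and AB. All probe sets shift with that centring, and the cause was otherwise not tested. The replicate block gave 5 called in SAB against AB (adding rps15) and 7 in SIZ1 and SAB against COL and AB (adding rps14), and it changed no other call of the 26 genes. The 3 arrays per genotype limit all tests, and rpoB and rps14 lie too near the floor for a change to be seen in full.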
